A study of Drosophila melanogaster with 6 samples.

Results

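The Turandot genes encode a family of small secreted stress peptides of the fly, and 7 of them, TotA, TotB, TotC, TotF, TotM, TotX and TotZ, were followed in midguts of adult Drosophila melanogaster of the wild-type strain Oregon-R. They were chosen by name: a gene belonged if its symbol in the deposited table was one of these 7, and all 7 were found among the 14026 genes listed. Libraries came from 3 groups of 2. Flies of the group Pe day 0 were 4 to 5 days old and had received a treatment that the labels call Pe without spelling it out. Flies of the group Pe day 3 had received the same treatment and were 7 to 8 days old. Flies of the Mock group were 4 to 5 days old and had received sucrose. Since no sucrose group of the older age is among the labels, Pe day 3 differs from Mock in treatment, day and age together. All groups share the strain, the genotype and the tissue, and the series asks how regeneration of the midgut starts and how it stops.

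Turandot peptides are best known from the fat body, the fly's counterpart of liver and adipose tissue, which releases them into the haemolymph after infection, heat, wounding or other stress. In the fat body the TotA gene is switched on by the cytokine Upd3 acting through the receptor Dome, the kinase Hop and the transcription factor Stat92E, together with the NF-kappaB factor Relish of the Imd pathway. TotM has been linked to the stress kinase Mekk1. In the gut, cytokines of the Upd family are released by damaged enterocytes and drive the division of stem cells through the same receptor. The peptides themselves have been described as binding membranes that expose phosphatidylserine and shielding them from antimicrobial peptides.

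In the Ensembl annotation of build BDGP6.54, 5 of the 7 genes lie on chromosome arm 3R and 2 on arm 2L. TotA (FBgn0028396, 20871036 to 20871700), TotC (FBgn0044812, 20872988 to 20873580), TotB (FBgn0038838, 20873938 to 20874522) and TotZ (FBgn0044809, 20877736 to 20878363) follow each other on the plus strand of 3R within 7328 bp, and the gap between TotC and TotB is 357 bp. TotX (FBgn0044810, 20904917 to 20905518, minus strand) lies 26553 bp beyond TotZ. It sits in an intron of Grik, a gene of the opposite strand named for a glutamate receptor. On 2L, TotM (FBgn0031701, 5329857 to 5330464) is on the plus strand, and TotF (FBgn0044811, 19911815 to 19912377) is on the minus strand in an intron of sick, an opposite-strand gene. All 7 are short, protein-coding genes with exonic lengths between 506 bp (TotF) and 602 bp (TotX) and reading frames of 125 codons (TotF) to 147 codons (TotZ). TotX has 1 exon, and the other 6 have 2 exons split by an intron of 55 bp (TotZ) to 86 bp (TotA).

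The deposited table gives 1 mean per gene over all libraries and the authors' fold changes of each Pe group against Mock, but no value per library. Group levels below were solved from that mean and both fold changes, in normalized counts, that is, reads after division by the size factor of their library. Each level has a 95% interval computed from the spread between libraries that the deposited standard errors imply. The number of reads behind each level was estimated in the same way, over both libraries of a group. Depth ran from an estimated 1.76e+07 to 2.01e+07 reads per library. The column headers do not name the groups: the first comparison was taken as Pe day 0 and the second as Pe day 3 because the title of the table names the groups in that order, and no other source bears on it. Whether the libraries of a group stem from separate dissections is not in the labels, so the p-values reflect differences among these libraries only, and those may be technical. The authors' counting could have divided reads among members that share sequence, so single members are uncertain to that extent.

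TotC and TotA carried most of the family's reads, and both were far higher at Pe day 0 than in either other group. TotC stood at 421 normalized counts at Pe day 0 (95% interval 326 to 545, about 1202 reads), at 5.19 at Pe day 3 (2.57 to 10.5, 9 reads) and at 3.75 in Mock (1.64 to 8.60, 6 reads). TotA stood at 406 normalized counts at Pe day 0 (318 to 517, about 1156 reads), at 6.36 at Pe day 3 (3.36 to 12.04, 11 reads) and at 14.3 in Mock (8.95 to 22.9, 23 reads). For both genes the interval at Pe day 0 lay wholly above those of the other groups, while the intervals of Pe day 3 and Mock overlapped.

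TotZ, TotM and TotB were seen mainly or only at Pe day 0, at far lower levels. TotZ had 39.3 normalized counts at Pe day 0 (18.6 to 82.8, about 112 reads), against 0 reads at Pe day 3 and 0 reads in Mock. A count of 0 allows up to 3 reads, which is a level of 1.75 at Pe day 3 and 1.83 in Mock; these limits cover counting error only. TotM had 10.9 normalized counts at Pe day 0 (3.81 to 31.1, about 31 reads), 2.36 at Pe day 3 (0.590 to 9.46, 4 reads) and 0.628 in Mock (0.0719 to 5.48, 1 read). Its intervals overlapped between all groups. TotB had 10.6 normalized counts at Pe day 0 (0.130 to 858, about 30 reads), against 0 reads at Pe day 3 and 0 reads in Mock. That interval is wider than the span from TotM in Mock to TotC at Pe day 0, so the level of TotB at Pe day 0 is hardly determined.

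TotX and TotF were at the limit of detection. TotX had about 3 reads at Pe day 0, 2 at Pe day 3 and 2 in Mock, too few for a fold. Its exon overlaps no exon of its host gene Grik. Reads from unspliced Grik RNA could not be told from those of TotX, since the use of strand in counting is not given in the sources used here. TotF was listed at a mean of 0, which allows levels of up to 1.05 at Pe day 0, 1.75 at Pe day 3 and 1.83 in Mock. Beside TotF lies a further gene of the family, TotE, which the table lists as Victoria (FBgn0053117) and which the choice by name left out. It had about 3 reads at Pe day 0, 0 at Pe day 3 and 0 in Mock.

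**Figure D1:**
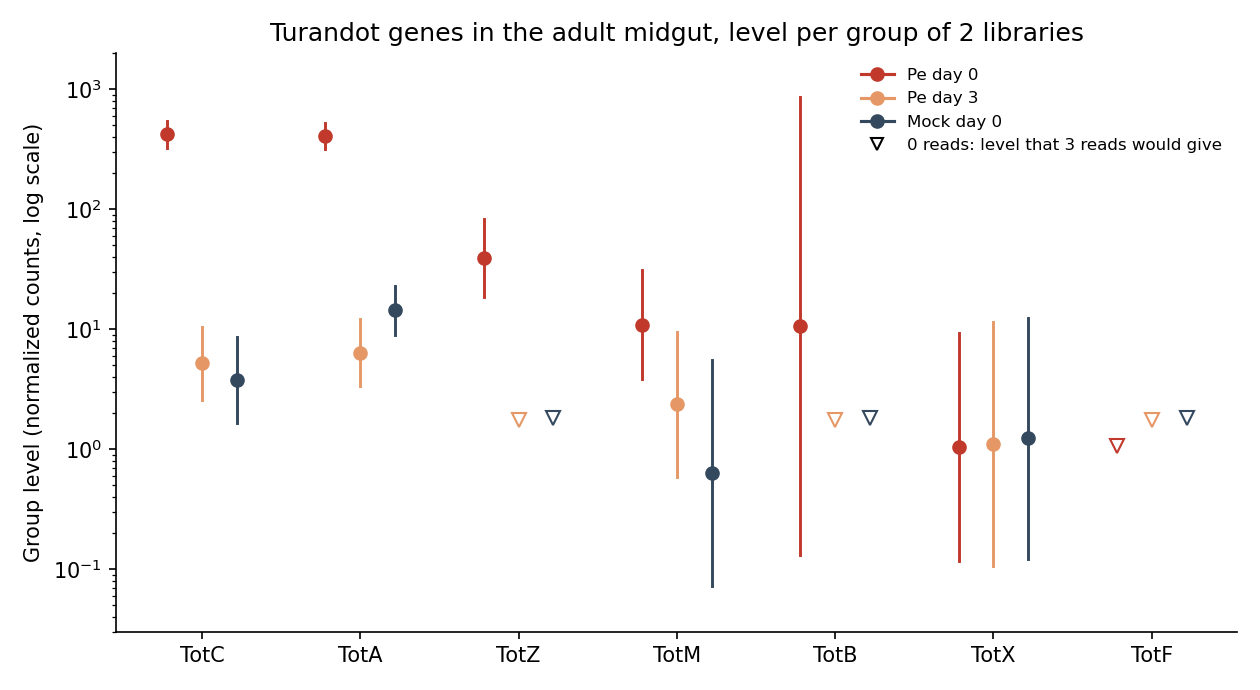
Level of each Turandot gene in each group in normalized counts, on a log axis; points are levels solved from the deposited mean and fold changes, bars are 95% intervals from the dispersion, and open triangles mark groups with 0 reads at the level that 3 reads would give. TotC and TotA stand at 421 and 406 at Pe day 0 and at 14.3 or below elsewhere, TotZ has reads at Pe day 0 and 0 reads in the other groups, and the bar of TotB spans 0.130 to 858.

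Summed over the 7 members, the family stood at 889 normalized counts at Pe day 0 (SE 80.1), 15.0 at Pe day 3 (SE 3.51) and 19.9 in Mock (SE 4.10). As CPM, the measure scaled to the total of each group, these were 63.2 CPM at Pe day 0, 0.687 CPM at Pe day 3 and 0.892 CPM in Mock. TotA and TotC together made up 93.1% of the family at Pe day 0, 76.9% at Pe day 3 and 90.7% in Mock. TotC alone made up 47.4% at Pe day 0, 34.6% at Pe day 3 and 18.8% in Mock, whereas TotA made up 45.6%, 42.3% and 71.8% in the same groups. Even at Pe day 0 the genes were not among those with the highest normalized counts: TotC ranked 4468th and TotA 4562nd by level among the 14026 genes listed. This rank is not corrected for gene length, and both genes are short.

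Levels of different members were set side by side per kilobase of exon. At Pe day 0 the order was TotC (795 normalized counts per kilobase, 615 to 1029), TotA (700, 549 to 893), TotZ (68.5, 32.5 to 144), TotB (20.1, 0.247 to 1630), TotM (19.7, 6.91 to 56.3) and TotX (1.73, 0.196 to 15.3). TotC and TotA did not differ beyond their intervals, nor did TotZ, TotB and TotM, while TotA and TotZ did; the interval of TotX overlapped those of TotB and TotM. At Pe day 3 TotA had 10.98 per kilobase (5.80 to 20.8), TotC 9.80 (4.85 to 19.8), TotM 4.28 (1.07 to 17.1) and TotX 1.84 (0.177 to 19.1), and no neighbours in that order differed beyond their intervals. In Mock the order of the leading members was turned, with TotA at 24.7 per kilobase (15.5 to 39.5) and TotC at 7.08 (3.09 to 16.2), though these intervals overlap slightly; TotX followed with 2.04 (0.201 to 20.7) and TotM with 1.14 (0.130 to 9.93).

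The comparison of Pe day 0 with Mock asked which members changed right after Pe, at matched age. Of the 7 members 5 were tested, that is, had an adjusted p in the authors' deposited table; 4 of these 5 were called higher at an adjusted p of 0.05 and 0 lower. Over all 10393 tested genes 23.0% were called higher and 23.6% lower. The median log2 fold change of the 5 members was 5.55, against 0.03 over all tested genes. That median is the fitted value of TotB, which was not called and whose standard error was 4.79. With TotZ and TotB set to their Pe day 0 level over the floor of 3 reads in Mock, it was 4.42. This value is that of TotZ, so neither median describes the members as a set. The deposited filter on low means left out TotX and TotF, so the 5 tested members are those with more reads, which came mostly from Pe day 0. TotZ and TotB, with 0 reads in the other groups, reached the lowest tested mean, 1.24 normalized counts, only through Pe day 0. The count of 4 of 5 and the medians therefore add no support to the fold changes below.

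TotC had a log2 fold change of 6.81 (SE 0.64, adjusted p = 3.68e-25, 2-sided Wald test with Benjamini-Hochberg adjustment) in the authors' deposited table. It ranked 41st from the highest of the 10393 tested genes. TotA had a log2 fold change of 4.83 (SE 0.39, adjusted p = 1.19e-33) in the authors' deposited table and ranked 137th in that order. The 95% intervals of these fold changes, 5.56 to 8.07 for TotC and 4.06 to 5.59 for TotA, overlapped by little; the larger fold of TotC went with its lower level in Mock. TotZ rose as well (adjusted p = 2.15e-05 in the authors' deposited table). As Mock had 0 reads, its level at Pe day 0 was set against a floor of 3 reads over the Mock group and was 21.4 times that floor. This ratio leaves out the error of the level at Pe day 0 (18.6 to 82.8), so it is no strict lower bound. The 95% interval of its log2 fold change ran from 4.25 to 10.6.

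The call of TotM rested on few reads. Its log2 fold change in the authors' deposited table was 4.12 (SE 1.77, adjusted p = 0.0439), and the ratio of 31 reads to 1 read, scaled by depth, was 17.8 with an exact 95% counting interval of 2.97 to 726. Without the filter on low means the adjusted p was 0.0507 and the call ended. TotB did not pass the test (adjusted p = 0.355 in the authors' deposited table). Its level at Pe day 0 was 5.76 times the same floor, but this is no lower bound, since the 95% interval of its log2 fold change ran from -3.84 to 14.9.

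The comparison of Pe day 3 with Mock asked how the members stood on day 3 relative to guts of younger, sucrose-fed flies. Of the 7 members 2 were tested, TotA and TotC, since the deposited filter for this comparison asked for a mean of at least 20.8 normalized counts. By the authors' Wald test 0 of the 2 were called in either direction, against 8.75% of 8316 tested genes called higher and 8.92% lower; at an unadjusted p under 0.05 there was 1, TotA. Its log2 fold change was -1.17 (SE 0.58, 95% interval -2.31 to -0.03, adjusted p = 0.172) in the authors' deposited table, on 11 reads at Pe day 3 and 23 reads in Mock. TotC was at 0.47 (SE 0.80, -1.10 to 2.04, adjusted p = 0.800) in the authors' deposited table. The widths of these intervals mean that the data do not show equal levels at Pe day 3 and in Mock. For TotM, with 4 reads at Pe day 3 and 1 in Mock, the depth-scaled ratio was 3.81 with an exact 95% counting interval of 0.377 to 188. TotZ and TotB had 0 reads in both groups, and for them no fold can be given.

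The comparison of Pe day 3 with Pe day 0 asked how the members moved over the following days, with age and day changing together. It was computed from the difference of both deposited fold changes after removing the variance they share through Mock. Both tested members, TotA and TotC, were lower at Pe day 3 than at Pe day 0, 2 of 2, against 25.3% of 8316 tested genes called lower and 27.4% higher. Both reached the lowest tested mean, 20.8 normalized counts, only through their level at Pe day 0. The filter thus kept members that were high at Pe day 0, and 2 of 2 adds no support to the fold changes below. TotA fell by 5.99 on the log2 scale (SE 0.50, adjusted p = 2.88e-31, Wald test on the DESeq2 estimates) and was 63.8-fold lower. TotC fell by 6.34 (SE 0.55, adjusted p = 3.10e-29, same test) and was 81.2-fold lower. The 95% intervals, -6.98 to -5.01 for TotA and -7.42 to -5.26 for TotC, overlapped. At an unadjusted p under 0.05 there were 3 of the 6 members with reads, TotZ being the third.

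The other members lay under the mean filter, so no adjusted p was computed for them in that comparison. The level of TotZ at Pe day 0 was 22.5 times a floor of 3 reads over the Pe day 3 group, again without the error of the level at Pe day 0. The 95% interval of its log2 difference ran from -10.6 to -4.25. For TotB the 95% interval of the log2 difference ran from -14.9 to 3.84 and so included 0. With the adjustment taken over all genes that have a p-value, TotZ passed (adjusted p = 2.92e-05, Wald test on the DESeq2 estimates). TotM had a log2 difference of -2.20 (SE 1.28, 95% interval -4.71 to 0.30).

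**Figure D2:**
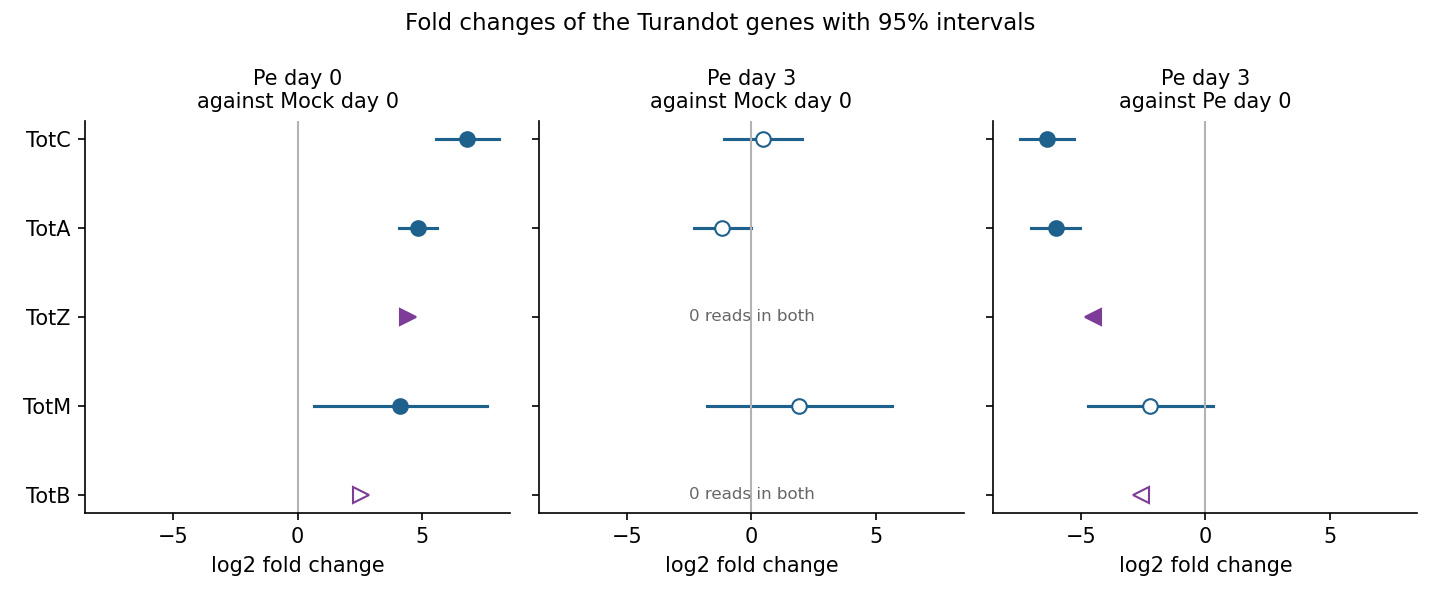
Log2 fold changes of 5 Turandot genes in the 3 comparisons; circles are fitted values with 95% intervals, filled where the adjusted p is under 0.05 and open where it is not or where none was computed, and triangles, for genes with 0 reads in the lower group, are the other group's level over the floor of 3 reads. Filled triangles (TotZ) mark a 95% interval of the log2 fold change that excludes 0, and open ones (TotB) one that includes 0. The triangles leave out the error of the level at Pe day 0 and are no strict bounds. TotC and TotA lie at 6.81 and 4.83 at Pe day 0 against Mock, at 0.47 and -1.17 at Pe day 3 against Mock, and at -6.34 and -5.99 at Pe day 3 against Pe day 0.

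How evenly the libraries of a group held the reads can be judged only from the dispersion, the variance beyond counting error that the deposited standard errors imply, as 1 value per gene over all groups. TotA had a dispersion of 0.0291 and TotC 0.0328, which are fitted coefficients of variation between libraries of 17.1% and 18.1%. The median over 1077 genes with means within 1.5-fold of TotA was 0.0233, and TotA exceeded 71.8% of them. TotC exceeded 81.2% of 1089 genes of like mean. TotZ had a dispersion of 0.271 and TotM 0.508, against medians of 0.211 and 0.564 among genes of like mean. By default DESeq2 draws the dispersion of a gene towards that of genes of like mean. Values of these 4 members near those medians therefore do not show that the libraries of a group agreed. TotB had a dispersion at the ceiling of the table, 10, above 99.8% of the 598 genes of like mean. Its 30 reads were therefore spread over the libraries less evenly than those of TotM, which had 31 reads at Pe day 0; which library held them cannot be read from the table.

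**Figure D3:**
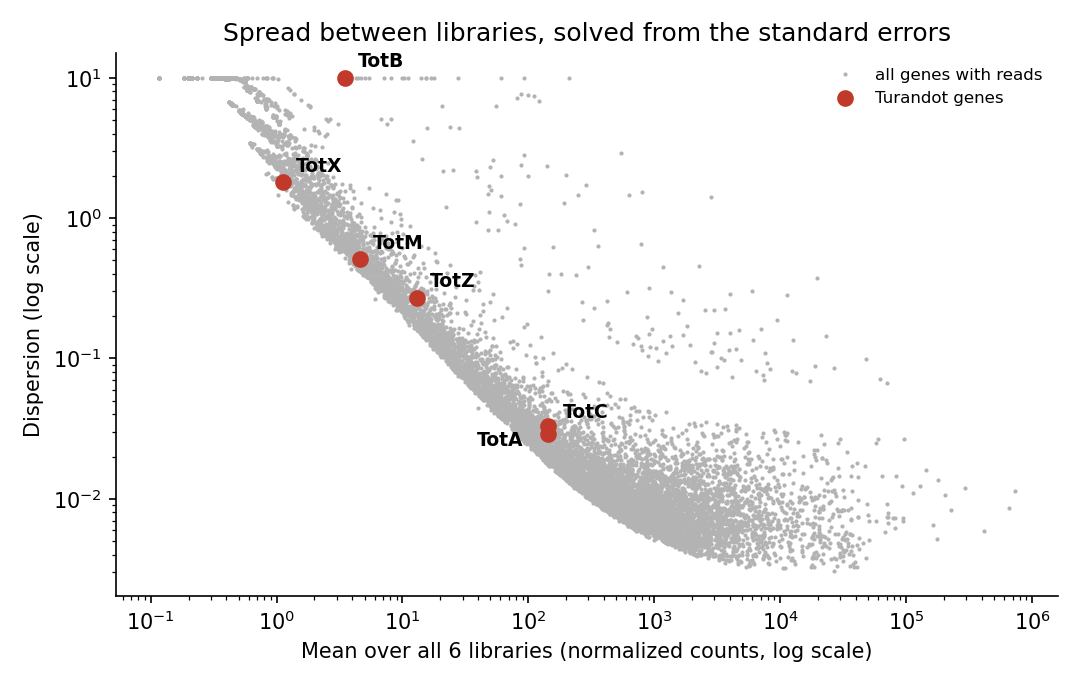
Dispersion between libraries against the mean over all 6 libraries, both on log axes, for every gene with reads (grey) and for the 6 Turandot genes with reads (red). TotA, TotC, TotZ, TotM and TotX lie within the band of all genes, and TotB lies at the ceiling of 10 with a mean of 3.52.

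The genes around the members were called in both directions. The table holds 12 other genes within 10 kb of a member, 11 of them tested at Pe day 0, of which 2 were called higher and 3 lower. These shares are near those of all tested genes, 23.0% higher and 23.6% lower, so the counts show nothing particular to the neighbours. CG3822, annotated as KaiR1D, lies 4805 bp from TotA on the opposite strand. It had 6.32 normalized counts at Pe day 0, against 0.619 in Mock, and was not called (3.35, SE 1.98, adjusted p = 0.157 in the authors' deposited table). Ktl, between TotZ and TotX, was lower, with 53.2 normalized counts at Pe day 0, against 151 in Mock (-1.51, SE 0.29, adjusted p = 1.20e-06 in the authors' deposited table).

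Grik, the host gene of TotX, stood at 22.5 normalized counts at Pe day 0, against 23.0 in Mock (-0.03, SE 0.61 in the authors' deposited table). Beyond TotX, at a distance of 8778 bp, hdly was higher, with 1473 normalized counts at Pe day 0, against 133 in Mock (3.46, SE 0.20, adjusted p = 1.26e-66 in the authors' deposited table). On 2L, sick, the host gene of TotF, had 833 normalized counts at Pe day 0, against 938 in Mock (-0.17, SE 0.12, adjusted p = 0.262 in the authors' deposited table). On library totals sick was higher instead, at 0.50 (adjusted p = 0.000137, Wald test on the DESeq2 estimates). Reads in the host genes thus stood beside 3 reads or fewer in TotX and 0 in TotF. Nearest to TotM was fusl, 6 bp away on the opposite strand, which was not called (0.46, SE 1.10, adjusted p = 0.761 in the authors' deposited table). CG14022, at 978 bp, was not called either (0.48, SE 0.78, adjusted p = 0.642 in the authors' deposited table). The respiratory chain gene cype, at 1888 bp, was lower (-0.88, SE 0.13, adjusted p = 3.14e-11 in the authors' deposited table). On library totals cype was at -0.21 and not called (adjusted p = 0.137, Wald test on the DESeq2 estimates).

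**Figure D4:**
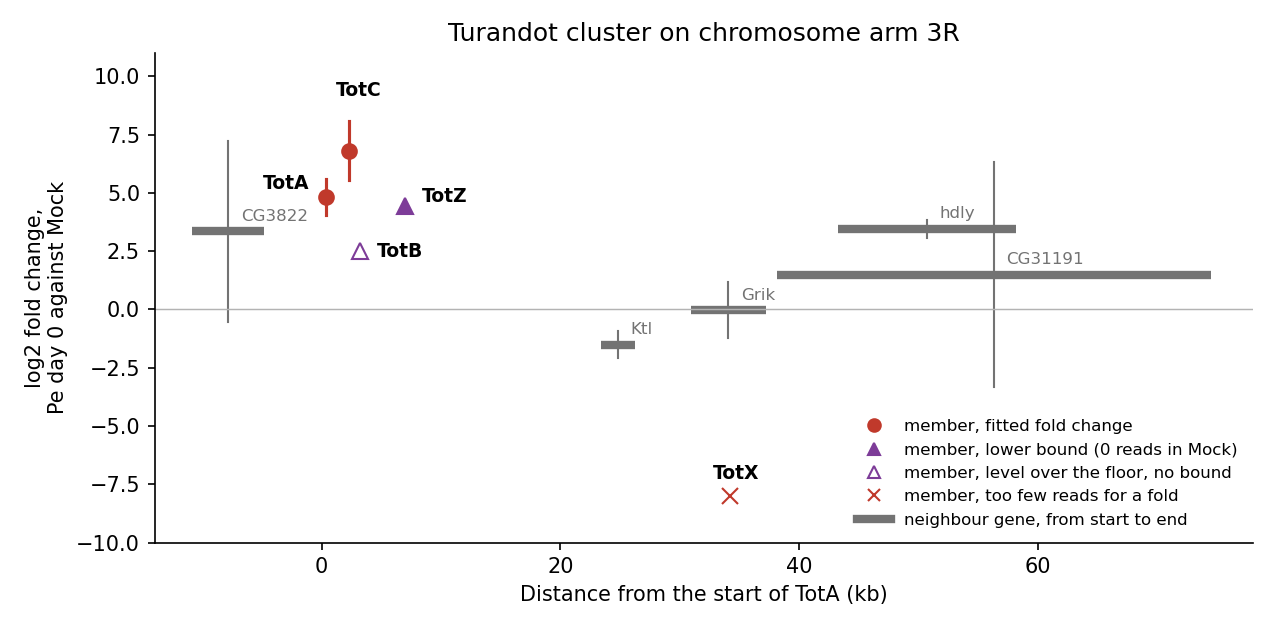
Log2 fold change at Pe day 0 against Mock for the Turandot genes of arm 3R and the tested genes around them, against the distance from the start of TotA in kb. Grey bars run from start to end of a neighbour gene, and vertical lines are 95% intervals. Triangles (TotZ filled, TotB open) are the level at Pe day 0 over the floor, without the error of that level. The key of the plot calls the filled one a lower bound, which it is not in the strict sense. TotX is marked at the foot of the plot with no value. TotA at 4.83 and TotC at 6.81 lie beside the triangles of TotB and TotZ, while Ktl at -1.51 and Grik at -0.03 lie between them and hdly at 3.46.

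Among 4550 other genes with a mean of at least 50 normalized counts, an adjusted p in both comparisons and a symbol other than a CG or CR number, those closest to TotC in their fold changes were sought by the distance between the pair of log2 fold changes against Mock, a measure that rests on 3 group levels. Nearest to TotC was Drsl3, a gene of the drosomycin family, at a distance of 0.56. Drsl3 had 1678 normalized counts at Pe day 0, 12.2 at Pe day 3 and 12.3 in Mock. It was followed by Drsl2 of the same family (1.06), LysX, a lysozyme gene (1.26), upd3, the cytokine gene (1.27), and Gr61a, a gene of the gustatory receptor family (1.29).

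Among the genes nearest to TotA were Gr94a, of the gustatory receptor family (1.05), Porin2, a porin gene (1.09), Drsl4, of the drosomycin family (1.09), and Cyp309a2, a cytochrome P450 gene (1.14). Gr94a had 683 normalized counts at Pe day 0, 24.0 at Pe day 3 and 26.2 in Mock. Its log2 fold changes in the authors' deposited table were 4.70 (SE 0.33) at day 0 and -0.13 (SE 0.40) at day 3. Both comparisons share the Mock libraries, so an error in Mock moves both values of a gene together. Of these 9 named genes upd3 passed the test at day 3 (1.58, SE 0.35, adjusted p = 0.000111, in the authors' deposited table).

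**Figure D5:**
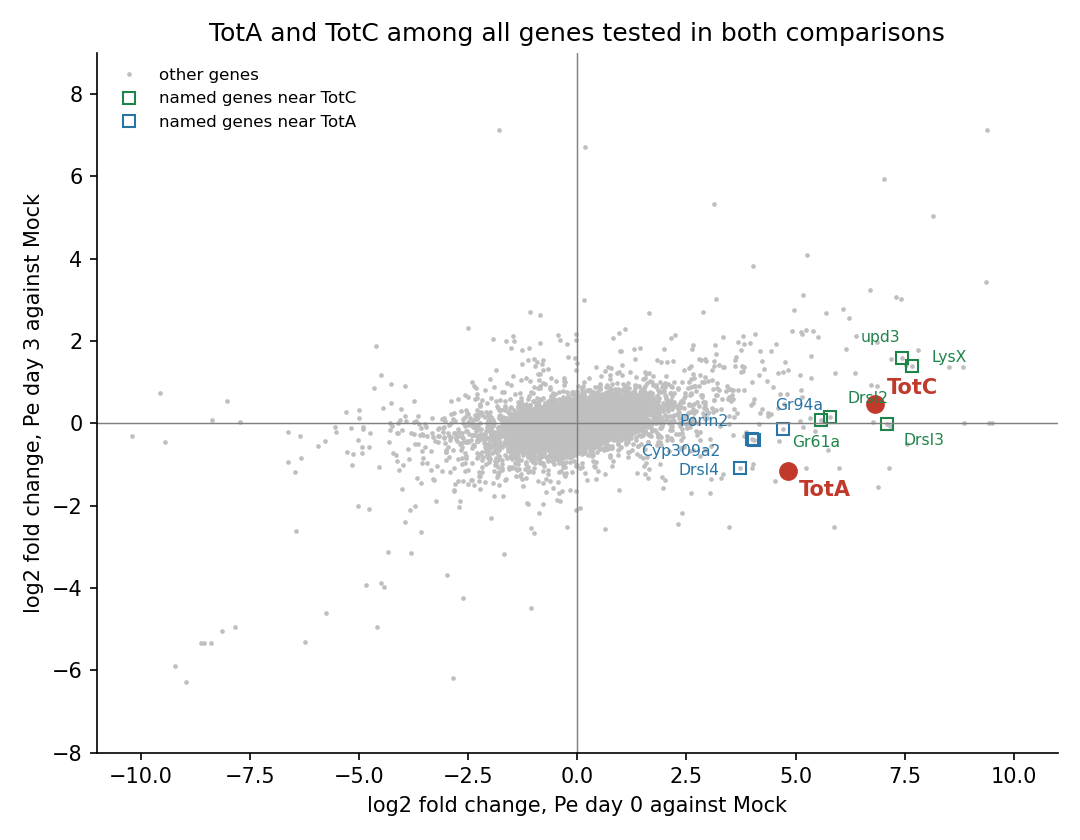
Log2 fold change of Pe day 3 against Mock over that of Pe day 0 against Mock for the genes tested in both comparisons (grey), with TotA and TotC (red) and the 9 named genes near them (squares); 4 genes lie outside the axes. TotA at 4.83 and -1.17 lies below 0 on the vertical axis, and TotC at 6.81 and 0.47 lies above it.

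Genes of the pathways known to act on Turandot genes in the fat body were counted from lists. Over all tested genes 23.0% were called higher and 23.6% lower at Pe day 0 against Mock. At Pe day 3 against Mock these shares were 8.75% and 8.92%. Of 14 genes in the JAK-STAT list 7 were higher at Pe day 0 and 0 lower, also at an unadjusted p under 0.05, with a median log2 fold change of 0.97 against 0.03 over all tested genes. The cytokine gene upd2 had 1758 normalized counts at Pe day 0, 26.9 at Pe day 3 and 7.87 in Mock. The gene upd3, for the cytokine that acts on TotA, had 2951, 51.2 and 17.1 in the same order of groups. Both also stood above Mock at day 3, by 1.77 (SE 0.51, adjusted p = 0.00512) for upd2 and 1.58 (SE 0.35) for upd3 in the authors' deposited table. The feedback inhibitor Socs36E had 24403 normalized counts at Pe day 0, 2103 at Pe day 3 and 1553 in Mock. The receptor gene dome rose by 0.99 (SE 0.17) at day 0 in the authors' deposited table, whereas hop (0.04, SE 0.15) and Stat92E (0.08, SE 0.10) did not pass. On library totals hop (0.71, adjusted p = 5.81e-06) and Stat92E (0.74, adjusted p = 1.05e-13, both by the Wald test on the DESeq2 estimates) passed. Whether these 2 genes changed thus depends on the scale. At Pe day 3 against Mock 4 of 12 tested genes of the list were higher and 0 lower by the authors' Wald test, with 6 higher and 0 lower at an unadjusted p under 0.05.

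In the stress MAPK list 6 of 15 genes were higher at Pe day 0 and 3 lower, with a median of 0.20. These counts are too close to the shares of all tested genes, 23.0% higher and 23.6% lower, to be read as a result. Mekk1 had 2274 normalized counts at Pe day 0, 1249 at Pe day 3 and 977 in Mock (adjusted p = 1.83e-20 at day 0 in the authors' deposited table). The largest fold of the list was that of the kinase gene p38c (2.61, SE 0.17), followed by kay, the fly Fos gene (2.01, SE 0.12), in the authors' deposited table. By day 3 against Mock 5 of 15 were higher and 0 lower by the authors' Wald test, with 6 higher and 0 lower at an unadjusted p under 0.05. Over all tested genes 8.75% were higher and 8.92% lower by that test.

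Of 13 genes in the Imd list 7 rose at Pe day 0 and 1 fell, with a median of 0.47, against 23.0% higher and 23.6% lower of all tested genes. Rel, which encodes Relish, had 8519 normalized counts at Pe day 0, 3233 at Pe day 3 and 2364 in Mock (1.85, SE 0.13, at day 0 in the authors' deposited table). The kinase subunit gene key rose with it (1.04, SE 0.11, in the authors' deposited table). In the comparison of Pe day 3 with Mock 2 of 13 were higher, Rel and key, and 0 lower by the authors' Wald test, with 4 higher and 1 lower at an unadjusted p under 0.05. Beside 8.75% higher over all tested genes, these 2 are too few to be read as a result.

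A short list of secreted or membrane genes known from infection or Stat92E studies had 7 of 8 genes in the table and 5 tested at Pe day 0, of which 2 were higher, Drsl3 and Tep4, and 1 lower, vir-1. Tep4, a thioester protein gene, had 8868 normalized counts at Pe day 0, 2147 at Pe day 3 and 1041 in Mock. At Pe day 3 against Mock 1 of 4 tested genes was higher, Tep4, and 0 lower by the authors' Wald test, with 2 higher and 0 lower at an unadjusted p under 0.05. The list is too short for its counts to be read as a result beside the shares of all tested genes.

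The scale between libraries moved these counts. The sum of normalized counts was lower at Pe day 0 than in Mock, with a log2 ratio of -0.67, so that scaling to library totals adds 0.67 to every gene at day 0 and 0.03 at day 3. With library totals 13 of 14 genes of the JAK-STAT list were higher at Pe day 0, 12 of 15 of the stress MAPK list, 12 of 13 of the Imd list and 3 of 5 of the secreted list, and 0 were lower in any of the 4. That scale raises all genes alike, and the share of all genes called on it is not given here. The counts on library totals are therefore not read as a result about the lists. The fall of Ask1, slpr and p38b of the stress MAPK list, of PGRP-LE of the Imd list and of vir-1 then turned to values above 0 that did not pass.

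The lists were counted at Pe day 3 against Pe day 0 as well, where 25.3% of all tested genes were lower and 27.4% higher. In the JAK-STAT list 7 of 12 tested genes were lower and 0 higher by the Wald test, with 8 and 0 at an unadjusted p under 0.05, in the stress MAPK list 6 of 15 lower and 4 higher, in the Imd list 6 of 13 lower and 2 higher, and in the secreted list 2 of 4 lower and 1 higher. The counts of the stress MAPK, Imd and secreted lists are too close to those shares, or too few, to be read as a result. With library totals, which move this comparison by -0.64, 12 genes were lower in the JAK-STAT list, 11 in the stress MAPK list, 10 in the Imd list and 2 in the secreted list, with 0 higher in each. As the share of all genes called on that scale is not given here, these counts are not read as a result either.

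Markers of the fat body, the main source of Turandot peptides in the fly, were measured beside the members. At Pe day 0 against Mock 23.0% of all tested genes were called higher and 23.6% lower. Of 10 markers 8 were tested at Pe day 0, of which 2 were higher, Tsf1 and Fst, and 4 lower, Yp1, Yp2, Yp3 and apolpp; Yp3 was not called with library totals. The yolk protein gene Yp1 had 862 normalized counts at Pe day 0, 3326 at Pe day 3 and 3562 in Mock. The lipoprotein gene apolpp had 128 at Pe day 0, 408 at Pe day 3 and 512 in Mock. The marker Lsp2, a larval serum protein gene, was low, with 7.79 at Pe day 0, 2.89 at Pe day 3 and 15.8 in Mock, and Obp99b and to had less than 1 normalized count in each group; 0 of the 10 were listed at a mean of 0. Summed over the list, the markers stood at 12983 normalized counts at Pe day 0, 23072 at Pe day 3 and 13163 in Mock. With library totals the sum at Pe day 0 was 20609 and thus above that of Mock, which turns the order of Pe day 0 and Mock. Most of this was Fst, a cold-response gene. Without it, a choice made after its values were seen, the sums were 2024 at Pe day 0, 6626 at Pe day 3 and 6719 in Mock, and with library totals 3212 at Pe day 0. The sum at Pe day 0 was below that of Mock without Fst on both scales, whereas Fst itself and Tsf1 were higher at Pe day 0. In such bulk libraries fewer cells of a type and less RNA per cell cannot be told apart.

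Of 8 haemocyte markers 0 were higher at Pe day 0 by the authors' Wald test, also at an unadjusted p under 0.05, and 3 lower, 2 with library totals, with a summed level of 974 normalized counts at Pe day 0, 1401 at Pe day 3 and 1695 in Mock. Visceral muscle markers were lower in 5 of 5 cases at Pe day 0, also with library totals. Of 4 progenitor markers 2 were higher and 2 lower, and of 5 enteroendocrine markers 4 were lower and 0 higher, also at an unadjusted p under 0.05, or 2 lower and 1 higher (CCHa1) with library totals. Of the 7 enterocyte markers, Myo31DF, nub and mex1 among them, all were present in each group, as the tissue label has it. Their summed level was 386630 normalized counts at Pe day 0, 942272 at Pe day 3 and 1033677 in Mock, and 613715 at Pe day 0 with library totals. At Pe day 0 against Mock 4 of the 7 were lower and 2 higher, or 2 lower and 3 higher with library totals. The trypsin gene alphaTry, most of that sum, had 290114 normalized counts at Pe day 0, against 909968 in Mock. Beside these counts stand shares of 23.0% higher and 23.6% lower over all tested genes at Pe day 0 on the authors' scale. The lists are short, so counts near those shares are not read as a result. Shares of all genes on library totals are not given here, so neither are the counts on that scale. The part of any of these cell types in the changes of the Turandot genes was not tested.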

How the data were processed

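Midgut RNA was extracted with TRIzol and sequenced from 6 libraries in 3 groups of 2, grouped by their titles. Among the tools in the submitters' processing notes are DESeq2 1.22.0, Salmon 0.11.3, fastp 0.19.5 and CASAVA 1.8, and the build is BDGP6; how each was run is not given in the sources used here, nor is strand use. The only table is one of the authors' own comparisons. Per the file headers it holds a mean signal per gene, that is, reads divided by a size factor and averaged over all libraries. Per the file headers it also holds, for each of 2 comparisons, the log2 fold change, the standard error of that change and a score, the Wald statistic. The deposited p-value and adjusted p-value follow from that score, and the deposited adjusted p-values equal a Benjamini-Hochberg adjustment over genes above a mean filter.

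A count test per library had been planned; without such counts the deposited tests were used, which rest on DESeq2 per the processing notes. Size factors came from genes with 1 read in all (42 to 165 genes per library), group levels from the mean and both fold changes, and dispersions from the standard errors, with fitted means floored at 0.5. Pe day 3 against Pe day 0 was tested 2-sided with a normal Wald test and Benjamini-Hochberg adjustment over 8316 genes. How well these steps recover the levels of genes with as few reads as the members had in Mock was not tested. Intervals have a level of 95%, and a count of 0 was set to a floor of 3 reads per group. Software was Python 3.11.15, numpy 2.4.6, scipy 1.17.1 and pandas 2.3.3. Gene positions are from Ensembl release 115.

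The members and lists were chosen with earlier results of these data known. Named are all members, the 2 called genes of each pathway list with the smallest p and those the text turns on, the 5 genes nearest TotA and TotC in their fold changes, of which 1 is not reported here, and neighbours and markers chosen after their values were seen. Alternatives were library totals, centring on the median, other mean filters, an adjusted p of 0.01, a test against a 2-fold change and a standard error that ignores the shared Mock libraries.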

Additional observations from a re-analysis of the deposited data

Results flagged for a closer look

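The effect of Pe against Mock differed between the days for both members that could be tested, which passed the mean filter only through Pe day 0. For TotA the effect at day 3 minus that at day 0 was -5.99 on the log2 scale (SE 0.50, adjusted p = 2.88e-31, Wald test on the DESeq2 estimates). For TotC it was -6.34 (SE 0.55, adjusted p = 3.10e-29, same test). As both effects share the Mock libraries, each value is the comparison of Pe day 3 with Pe day 0, in which age differs as well.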

How the results depend on the processing

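Of 59 values of single members under the alternatives, 55 kept their direction and their side of the threshold. Some of the 59 could not change, so this count is no measure of how robust the calls are. TotZ and TotB had 0 reads in both groups at Pe day 3 against Mock. The stricter adjusted p and the test against a 2-fold change can only leave an uncalled value uncalled. The count of 4 members higher at Pe day 0 was 2, TotA and TotC, when only genes with a mean of at least 100 normalized counts were adjusted, a filter that leaves 2 members to test. The summed level at Pe day 0 was 1411 on library totals, against 889 on the authors' size factors. TotM at Pe day 0 was not called without a mean filter (adjusted p = 0.0507, Wald test on the DESeq2 estimates), at an adjusted p of 0.01, or against a 2-fold change (adjusted p = 0.594, same test). TotZ at Pe day 3 against Pe day 0 gained a call without the filter. Of 24 counts in the pathway lists 12 moved by over 1.5 times with library totals. Leaving out single libraries was not run, as the table holds no values per library, and promoter motifs were not run for want of sequences. No paired analysis was possible because the table gives no value for any single library. Depth limits the levels of TotX, with 2 or 3 reads a group, and of TotM outside Pe day 0, while that of TotB is limited by the spread between libraries.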
